A study of Mus musculus with 4 samples.

Results

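The genes described here encode the machinery that carries new proteins into the endoplasmic reticulum (ER), processes them there and moves them between the ER and the Golgi. Membership follows a rule on gene symbols, written with earlier results of these data known, and takes in 57 of the 24421 symbols in the count tables. By role, 10 belong to the signal recognition particle (SRP) and its receptor, and 10 to the translocon and the translocon-associated protein (TRAP) complex. Another 5 belong to signal peptidase, 7 to oligosaccharyltransferase (OST), 14 to the COPII coat, 8 to the COPI coat and 3 to the Sec22 family. RNA was sequenced in bulk from subcutaneous J558 allografts in female BALB/c mice on day 6. Mice were given the vehicle, 0.5% methylcellulose, or the CDC7 inhibitor TAK-931 at 60 mg/kg by mouth once daily, and each group held 2 libraries (Vehicle-1 and Vehicle-2, TAK-931-1 and TAK-931-2). J558 is a mouse plasmacytoma line, so all 4 tumors contained antibody-type secretory cells together with host cells of an immunocompetent mouse, and no arm without J558 cells was analysed here. The mice were 4 weeks of age by the study's methods, which followed tumors of individual mice. The labels do not state that the 4 libraries came from separate mice, and p-values therefore measure only the spread between these libraries.

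A protein bound for secretion is met on the ribosome by SRP, which docks at the SRP receptor and hands the ribosome to the Sec61 channel. Signal peptidase then removes the signal peptide and OST attaches the N-glycan, COPII vesicles take the cargo to the Golgi, and COPI vesicles return escaped ER proteins. Plasma cells run this route at high capacity under the transcription factor XBP1, a main arm of the unfolded protein response.

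To see what the genes share in sequence, the RefSeq promoter windows of GRCm38.p6, which run from 250 bases before to 50 bases after an annotated start, were searched on both strands for 4 motifs of the unfolded protein response. A total of 50 genes had 54 such windows. The UPRE core TGACGTGG, a sequence bound by XBP1, was present in 5 of the 54 windows (9.26%), against 0.676% of all 32851 windows and 0.860% of the 13141 windows of tested genes. The shorter core ACGTG, which lies within the UPRE core, was present in 32 windows (59.3%) of 31 genes, against 19.6% of all windows and 24.8% of those of tested genes. The ER stress elements ERSE (CCAAT, any 9 bases, then CCACG) and ERSE-II (ATTGG, any base, then CCACG) were found in 0 of the 54 windows. They were found in 0.119% and 0.0365% of all windows and in 0.152% and 0.0685% of those of tested genes. At rates this low, 54 windows are too few to show a lack of these elements. A match describes letters in a window and not a bound site. The 5 UPRE core matches are printed because they place this element in genes of both vesicle coats. Each stretch is read 5′ to 3′ on the strand of its gene with the core, or its reverse complement CCACGTCA, in capitals. The match began 44, 26, 28 and 7 bases before the start in Sec16b, Sec24d, Copb1 and Copb2 and 6 bases after it in Sec23a. They lie at chr1:157506741-157506770 on the plus strand (Sec16b), chr3:123267459-123267488 on the plus strand (Sec24d), chr7:114254690-114254719 on the minus strand (Copb1), chr9:98563713-98563742 on the plus strand (Copb2) and chr12:59011993-59012022 on the minus strand (Sec23a).
Sec16b: ttctgtgtggcTGACGTGGcacggcagttt
Sec24d: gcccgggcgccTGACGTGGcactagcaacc
Copb1: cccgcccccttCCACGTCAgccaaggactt
Copb2: tcccggaagttCCACGTCAgtgggttggcc
Sec23a: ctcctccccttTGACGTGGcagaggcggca

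Library totals ranged from 16487902 to 19589339 counts. Levels are given as CPM, in which counts are divided by library totals adjusted by the trimmed mean of M values (TMM), or, for comparisons between genes, as RPKM, which also divides by exon length. The plasma cell label was checked on 13 markers, and Jchain, Pou2af1, Sdc1, Xbp1 and Trap1a were all abundant in every library, with a summed marker level of 16723 to 17004 CPM in the vehicle libraries. That sum was lower in TAK-931-1 (6551 CPM) and higher in TAK-931-2 (19579 CPM), and all 13 markers lay below both vehicle libraries in TAK-931-1. TAK-931-1 also stood apart in host markers. The summed level of 10 T cell markers was 22.2 to 35.2 CPM in the vehicle libraries, compared with 1388 CPM (TAK-931-1) and 100.2 CPM (TAK-931-2), with all 10 above both vehicle libraries in each TAK-931 library. For 10 macrophage markers the sums were 538 to 633, 9264 and 1655 CPM, for 9 fibroblast markers 2022 to 2296, 15452 and 5476 CPM, and for 8 endothelial markers 287 to 308, 937 and 293 CPM, in the same order. Sums for 5 NK cell markers (18.3 to 34.9, 305 and 52.2 CPM), 6 neutrophil markers (7.47 to 8.75, 143 and 17.9 CPM), 5 skeletal muscle markers (81.6 to 85.8, 556 and 11.4 CPM) and 5 adipocyte markers (45.1 to 67.7, 263 and 28.6 CPM) were also highest in TAK-931-1. No T cell, macrophage, fibroblast, endothelial or muscle marker was at 0 in any library, whereas 1 NK cell marker, up to 3 neutrophil markers and up to 2 adipocyte markers were at 0 in at least 1 library. The part of these cell types in the results below was not tested. In bulk RNA, fewer cells of a type and less RNA per cell cannot be told apart.

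**Figure D1:**
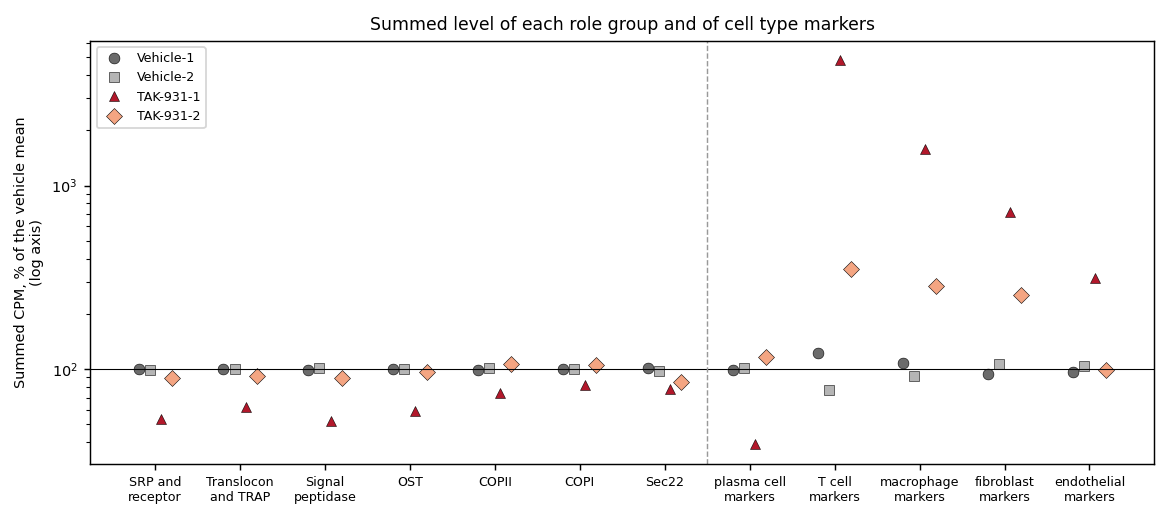
Summed CPM of each role group and of 5 sets of cell type markers in each library, as a percentage of the mean of both vehicle libraries, on a log axis; each point is 1 library. TAK-931-1 lies below the vehicle libraries for every role group and for plasma cell markers, and above them for the 4 sets of host markers shown.

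In TAK-931-1 the secretory-route genes were lower as a group than in the vehicle allografts, whereas in TAK-931-2 their summed level was close to that of the vehicle. Their share of all counts was 1.41% (95% Wilson interval 1.40 to 1.41%) for Vehicle-1 and 1.42% (1.42 to 1.43%) for Vehicle-2. It was 0.864% (0.860 to 0.868%) for TAK-931-1 but 1.41% (1.41 to 1.42%) for TAK-931-2. After TMM scaling the sums were 14212, 14242, 8913 and 13599 CPM, so that TAK-931-1 held 62.6% and TAK-931-2 95.6% of the vehicle mean. Both vehicle libraries were therefore almost superimposed, and the TAK-931 libraries differed from each other by far more than they did.

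A total of 54 genes passed the filter on low counts and were tested. Of these, 46 had a negative fitted log2 fold change of TAK-931 over vehicle (49.0% of all 13669 tested genes did) and 8 a positive one, with a median of -0.27 against 0.02 for all tested genes. No gene passed an adjusted p of 0.05 by edgeR's quasi-likelihood test, either among the 54 or among all tested genes (0.0%), and the lowest adjusted p among the 54 was 0.275. At an unadjusted p under 0.05, 1 gene was lower (Sec22a, background 6.55%) and 1 higher (Copz2, background 11.6%). DESeq2 called 0 of the 54 as well, but 1389 genes in all (10.2%). With Vehicle-1 left out, Vehicle-2 left out or a replicate block, 0 of the 54 had an unadjusted p under 0.05, against 6.86%, 6.98% and 16.2% of all genes tested in these fits. The 95% interval of the log2 fold change held 0 for 52 of the 54 genes and for 11194 of all 13669 tested genes.

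Counted library by library, 28 genes were lower in both TAK-931 libraries than in both vehicle libraries (32.7% of all tested genes were) and 5 were higher (30.0%), and for 21 the groups overlapped. TAK-931-1 lay below both vehicle libraries for 46 genes (47.4%) and above both for 6 (46.1%), whereas TAK-931-2 lay below for 29 (44.4%) and above for 20 (42.3%). TAK-931-1 was lower than TAK-931-2 in 47 genes (49.6%). Relative to the vehicle mean, the median log2 ratio was -0.58 for TAK-931-1 and -0.07 for TAK-931-2, against -0.02 and -0.01 for all tested genes. The vehicle libraries differed from each other by a median of 0.05 on the log2 scale for these genes and the TAK-931 libraries by 0.59, against 0.16 and 0.70 for all tested genes. Low values were thus more numerous and lower in TAK-931-1, and the TAK-931-2 levels lay mostly close to those of the vehicle.

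**Figure D2:**
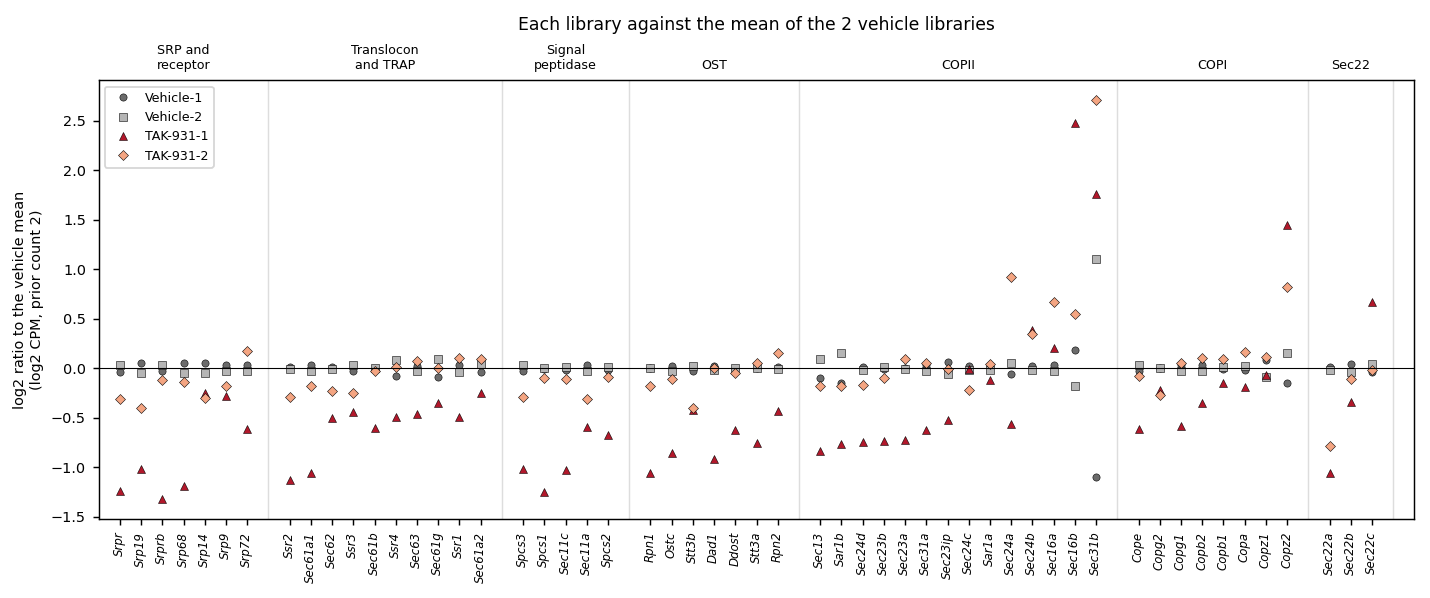
Log2 ratio of each library to the mean of both vehicle libraries (log2 CPM, prior count of 2) for the 54 tested genes, ordered by role and by fitted change. Vehicle points lie near 0 for nearly all genes, TAK-931-1 (triangles) lies between -1.32 and 2.48, and TAK-931-2 (diamonds) between -0.79 and 2.71.

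SRP and its receptor showed the lowest median change of the 7 role groups, a log2 fold change of -0.57 over 7 tested genes. All 7 were negative (background 49.0%), and 6 were lower in both TAK-931 libraries than in both vehicle libraries (background 32.7%). Their summed level was 53.3% (TAK-931-1) and 88.9% (TAK-931-2) of the vehicle mean. The alpha subunit of the SRP receptor, Srpr (chr9:35211203-35217003, mm10), had the lowest fold change of the group. Srpr was at 366 and 385 CPM in the vehicle libraries, compared with 159 CPM (TAK-931-1) and 302 CPM (TAK-931-2). The groups did not overlap, and the log2 fold change was -0.70 ± 0.38 (SE, n = 2 per group, edgeR adjusted p = 0.344). The exons of Srpr overlap Fam118b on the opposite strand, and strand use in counting was not given in the sources used here. Srp14, which arrests elongation together with Srp9, had the highest level per length of the group as a mean over all 4 libraries (172 RPKM), although Srp19 was higher in the vehicle libraries (194 against 188 RPKM). In the order Vehicle-1, Vehicle-2, TAK-931-1 and TAK-931-2, which is kept for all further sets of 4 values, it was at 154, 144, 125 and 121 CPM, and was thus similarly low in both TAK-931 libraries (log2 fold change -0.27 ± 0.21, adjusted p = 0.453). Srp72, a scaffold protein of SRP, was at 215, 207, 138 and 238 CPM, with the TAK-931 libraries on opposite sides of the vehicle (log2 fold change -0.17 ± 0.34). The other 4 tested genes, Srp9, Srp19, Srp68 and Srprb, had log2 fold changes from -0.68 (Srp19) to -0.23 (Srp9). The copies of the signal peptide-binding subunit, Srp54a, Srp54b and Srp54c, were not tested. They held at most 9 counts in any library, and Srp54c held 0 in all 4, below a floor of 3 counts (0.153 to 0.182 CPM). These genes are near-identical copies and the alignments were named as uniquely placed, so that their level is uncertain.

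The translocon and TRAP genes had a median log2 fold change of -0.26. All 10 were negative and all 10 lay below both vehicle libraries in TAK-931-1 (background 47.4%), but 5 did so in TAK-931-2 (44.4%). Their sum was 62.4% and 92.1% of the vehicle mean in the respective TAK-931 libraries. Sec61a1, the channel-forming alpha subunit (chr6:88503607-88518800), was at 713 and 686 CPM in the vehicle libraries, compared with 335 CPM (TAK-931-1) and 615 CPM (TAK-931-2). The groups did not overlap (log2 fold change -0.56 ± 0.37, adjusted p = 0.405). The less abundant Sec61a2 was at 18.0, 19.0, 15.5 and 19.8 CPM, with overlapping groups (log2 fold change -0.07 ± 0.31). Sec61b, the small beta subunit of the channel, had the highest level of the group, a vehicle mean of 619 RPKM. It was at 340.3, 343, 224 and 334 CPM, so that TAK-931-2 lay just below the vehicle pair. The TRAP subunit Ssr2 had the lowest change of the group and was at 642, 631, 292 and 520.3 CPM (log2 fold change -0.65 ± 0.36, adjusted p = 0.348). The groups did not overlap for Ssr2. The other 6 genes, Sec61g, Sec62, Sec63, Ssr1, Ssr3 and Ssr4, ranged from -0.36 (Sec62) to -0.16 (Ssr1).

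All 5 signal peptidase genes were lower in both TAK-931 libraries than in both vehicle libraries (background 32.7%), with a median log2 fold change of -0.50 and adjusted p of 0.324 or more. Their sum was 52.3% (TAK-931-1) and 89.4% (TAK-931-2) of the vehicle mean. Sec11c, a catalytic subunit, had the highest level per length of all 57 genes (vehicle mean of 721 RPKM, rank 111 of all genes in the tables). It was at 549, 561, 272 and 513 CPM (log2 fold change -0.50 ± 0.38, adjusted p = 0.458). Sec11a, the alternative catalytic subunit, was at 154, 147, 99.8 and 122 CPM and had a narrower error, since its TAK-931 libraries lay closer together (log2 fold change -0.45 ± 0.22, adjusted p = 0.324). The accessory subunit Spcs3 was at 479, 499, 241 and 399 CPM and had the lowest change of the group (log2 fold change -0.61 ± 0.33, adjusted p = 0.341). Spcs2 was at 452, 461, 285 and 429.5 CPM and had the highest (-0.35 ± 0.30). Spcs1 lay between them at -0.56, and its exons overlap Glt8d1 on the opposite strand.

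The 7 OST genes had a median log2 fold change of -0.39, and all 7 lay below both vehicle libraries in TAK-931-1 and 4 in TAK-931-2 (background 47.4% and 44.4%). Their sum was 59.2% and 96.9% of the vehicle mean. Rpn1, which encodes ribophorin I (chr6:88084473-88105304), had the highest CPM of all 57 genes. It was at 1054 and 1057 CPM in the vehicle libraries, compared with 507 CPM (TAK-931-1) and 932 CPM (TAK-931-2) (log2 fold change -0.55 ± 0.37, adjusted p = 0.409). Its partner ribophorin II, Rpn2, was at 646, 636, 473 and 713 CPM, with the TAK-931 libraries on either side of the vehicle pair (log2 fold change -0.11 ± 0.30). Rpn1 shares exon sequence with Mir6376 and Rpn2 with Mroh8, each on the opposite strand. Ddost, a structural subunit with the highest level per length in this complex (318 RPKM), was at 663, 668, 433 and 641 CPM (-0.31 ± 0.29). The 2 catalytic subunits differed in their pattern. Stt3a, which glycosylates proteins as they enter through Sec61, was at 555, 553, 327 and 574 CPM and overlapped between groups (log2 fold change -0.30 ± 0.35). Stt3b, which can act on completed chains, was at 151, 156, 114 and 116 CPM and was similarly low in both TAK-931 libraries (-0.41 ± 0.20, adjusted p = 0.318). Whether Stt3a and Stt3b differed in response was not tested. The remaining genes, Dad1 and Ostc, were at -0.39 and -0.44.

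**Figure D3:**
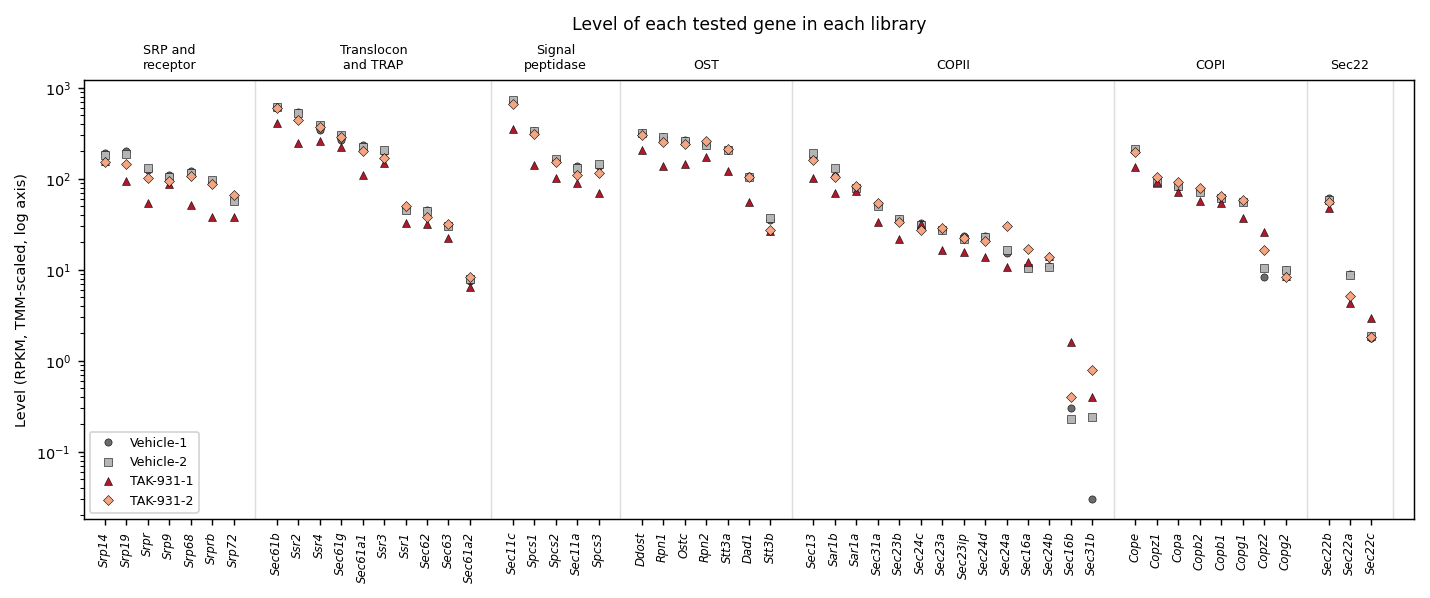
RPKM (TMM-scaled, log axis) of the 54 tested genes in each library, ordered within each role by mean level. Most genes lie between 10 and 1000 RPKM, Sec11c and Sec61b stand at the top, and Sec16b and Sec31b lie far below the rest of the COPII coat.

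The COPII coat, which buds vesicles from the ER, had genes on both sides. Of its 14 genes, 4 were lower and 4 higher in both TAK-931 libraries than in both vehicle libraries, shares near the background of 32.7% and 30.0%, and 6 overlapped. The median log2 fold change was -0.18, and the sum was 74.4% (TAK-931-1) and 106.3% (TAK-931-2) of the vehicle mean. The genes lower in both were Sec13, Sar1b, Sec23b and Sec24d. Sec13, an outer cage protein with the highest level of the coat (182 RPKM), was at 221, 253, 132 and 208 CPM (-0.48 ± 0.31, adjusted p = 0.404). Sar1b, a small GTPase that starts coat assembly, was at 134, 165, 87.1 and 131 CPM (-0.45 ± 0.30). Its paralogue Sar1a was at 213, 206, 192 and 215 CPM with overlapping groups, and its log2 fold change of -0.04 ± 0.22 changed sign under median-of-ratios scaling (0.0068). Among the inner coat genes, Sec23b was at 105, 107, 63.4 and 98.8 CPM (-0.39 ± 0.29). Sec23a, whose window holds a UPRE core, was at 113, 112, 68.2 and 119.8 CPM (-0.26 ± 0.34). TAK-931-2 lay just below the vehicle pair for Sec23b and just above it for Sec23a.

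The 4 Sec24 genes, which encode the cargo-binding adaptors, differed in direction. Sec24a (chr11:51692263-51756834) was at 104 and 112 CPM in the vehicle libraries, compared with 73.0 CPM (TAK-931-1) and 204 CPM (TAK-931-2). The TAK-931 libraries thus flanked the vehicle libraries from far below and far above, and the log2 fold change of 0.36 ± 0.53 (adjusted p = 0.697) described neither. Sec24b was at 52.2, 50.5, 67.1 and 65.1 CPM, higher in both TAK-931 libraries by a similar amount (0.36 ± 0.20, adjusted p = 0.344). Sec24c was at 147, 142, 144 and 124 CPM (-0.11 ± 0.22). Sec24d, which also holds a UPRE core, was at 91.4, 89.4, 53.8 and 80.1 CPM (-0.43 ± 0.27, adjusted p = 0.390). Groups did not overlap for Sec24b and Sec24d and overlapped for Sec24a and Sec24c.

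The scaffold genes that mark ER exit sites were higher in both TAK-931 libraries. Sec16a was at 94.6, 90.8, 106 and 148 CPM (log2 fold change 0.46 ± 0.25, adjusted p = 0.352). Sec16b was far less abundant, at 1.42, 1.08, 7.43 and 1.87 CPM or 24, 18, 141 and 32 counts (1.89 ± 0.89, adjusted p = 0.306). The higher mean of Sec16b came from TAK-931-1, the library with the most host markers. Of the outer cage genes, Sec31a was at 225, 215, 143 and 228 CPM (-0.25 ± 0.31). Sec31b was near the detection limit, with 2, 16, 30 and 54 counts (0.119, 0.959, 1.58 and 3.15 CPM), and its log2 fold change of 2.12 ± 1.15 had the widest error of all 54 genes. The last COPII member, the Sec23-binding phospholipase-like gene Sec23ip, was at -0.25.

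The COPI coat, the retrograde coatomer, was the group with the smallest median change, -0.07 over 8 genes, with a sum of 81.6% (TAK-931-1) and 105.7% (TAK-931-2) of the vehicle mean. Copz2, which encodes the alternative zeta subunit (chr11:96849876-96861202), was at 7.83 and 9.71 CPM in the vehicle libraries, compared with 24.0 CPM (TAK-931-1) and 15.5 CPM (TAK-931-2). The groups did not overlap, and its log2 fold change of 1.17 ± 0.40 had an unadjusted edgeR p of 0.0386 that did not hold after adjustment (adjusted p = 0.275). Its abundant paralogue Copz1 was at 170.0, 151, 153 and 173 CPM, a log2 fold change of 0.02 ± 0.22 with overlapping groups. Cope, the epsilon subunit with the highest level of the coat (207 RPKM), was at 209.7, 219, 140.0 and 202 CPM (-0.32 ± 0.28). Copg1 was at 258, 248, 168 and 261 CPM (-0.24 ± 0.30). The alternative gamma subunit Copg2 was at 40.3, 40.3, 34.6 and 33.3 CPM (-0.25 ± 0.21) and was thus slightly low in both TAK-931 libraries, although its exons overlap Mest on the opposite strand. Copa, Copb1 and Copb2 ranged from -0.11 (Copb2) to 0.00 (Copa). Copb1 and Copb2 hold the remaining pair of UPRE cores. Of the 5 genes with this core, 4 had negative log2 fold changes, from -0.43 (Sec24d) to -0.02 (Copb1). Sec16b, with few counts, had a positive one of 1.89. Negative values were also found in 46 of the 54 tested genes of the route and in 49.0% of all tested genes. Whether the core goes with the change in level was not tested. Copb1 and Copb2, like Sec23a, lay above the vehicle mean without TAK-931-1 (log2 fold changes of 0.09, 0.10 and 0.08) and below it without TAK-931-2 (-0.17, -0.37 and -0.75).

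Sec22a (chr16:35311131-35363918), of the Sec22 family related to ER-Golgi SNAREs, had the lowest unadjusted p of the 54 tested genes. It was at 35.99 and 35.2 CPM in the vehicle libraries, compared with 17.1 CPM (TAK-931-1) and 20.6 CPM (TAK-931-2). Both TAK-931 libraries were thus near the same low level, 48.0% and 57.9% of the vehicle mean, and the groups did not overlap. The log2 fold change was -0.92 ± 0.25, with an unadjusted edgeR p of 0.0190 and an adjusted p of 0.275. Sec22b, the family's established ER-Golgi SNARE and its most abundant member (59.8 RPKM), was at 112, 106, 85.8 and 100.3 CPM (-0.22 ± 0.21). Sec22c was at 10.3, 10.9, 17.0 and 10.5 CPM (0.37 ± 0.41), and only TAK-931-1 was high among these 4 libraries.

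**Figure D4:**
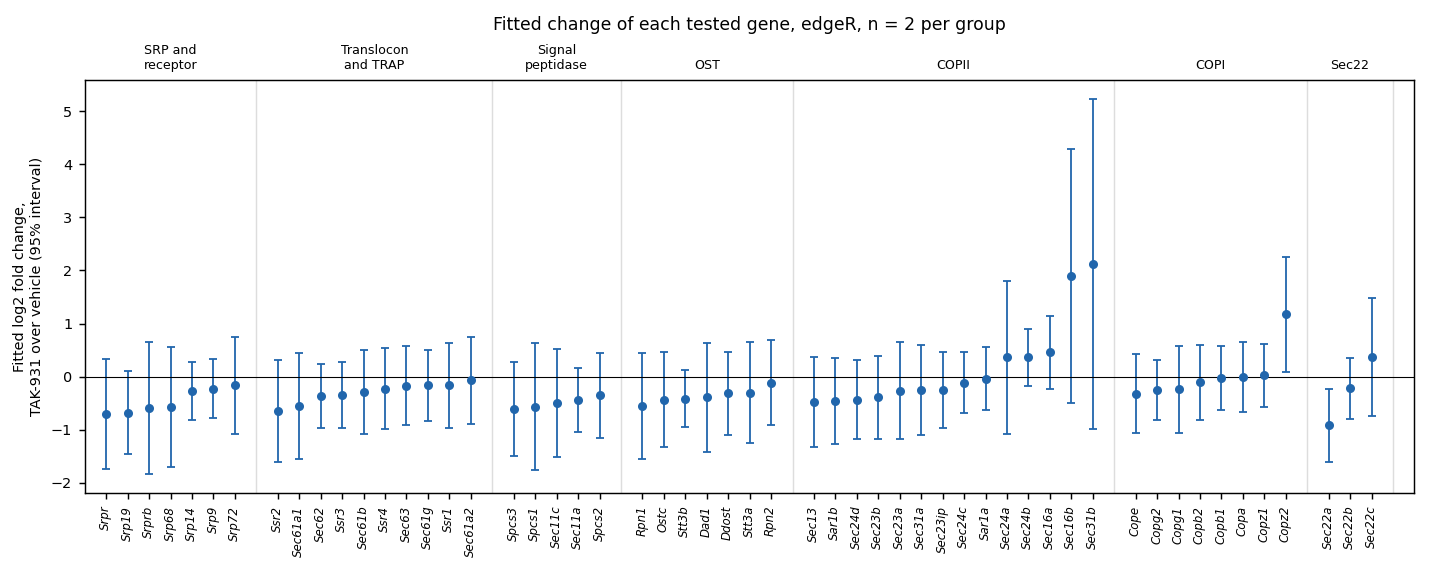
Fitted log2 fold change of TAK-931 over vehicle with its 95% interval for the 54 tested genes (edgeR, n = 2 per group). The intervals of Sec22a (below 0) and Copz2 (above 0) exclude 0, and the intervals of the other 52 genes hold it.

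Ordered along the route, the ER entry genes (SRP, translocon, signal peptidase and OST) had a median log2 fold change of -0.36 over 29 tested genes. All 29 were negative (background 49.0%) and all 29 lay below both vehicle libraries in TAK-931-1 (background 47.4%). In TAK-931-2, 20 of the 29 lay below both vehicle libraries (background 44.4%) and 6 above (background 42.3%). The 22 coat genes had a median of -0.11, with 15 negative and 7 positive. The summed level of ER entry genes was 58.1% (TAK-931-1) and 92.8% (TAK-931-2) of the vehicle mean, and that of the coat genes 77.8% and 106.0%. In both TAK-931 libraries the ER entry genes thus stood lower relative to vehicle than the coat genes did. This order is a description of 2 libraries, and the difference between the role groups was not tested. All 13 plasma cell markers were below the vehicle libraries in TAK-931-1, where their sum was 38.8% of the vehicle mean, whereas in TAK-931-2, with a sum of 116%, 6 of the 13 were below and 7 above.

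Several steps of the route are served by paralogues, and their relative use was compared as each gene's share of the summed RPKM of its set. Groups did not overlap for the Sec61 alpha, Sar1, Sec31 and Copz sets and for Sec24b and Sec24d. They overlapped for Stt3, Sec23, Sec16, Copg and Sec11. The Sec31 shares rest on Sec31b, which held 2, 16, 30 and 54 counts. A background for shares was not computed. For CPM levels of single genes, 32.7% of all tested genes were lower and 30.0% higher in both TAK-931 libraries than in both vehicle libraries. Copz2 made up 7.62% and 10.3% of Copz RPKM in the vehicle libraries, against 22.0% (TAK-931-1) and 13.8% (TAK-931-2). Sec24d made up 28.7% and 28.3% of Sec24 RPKM in the vehicle libraries and 19.7% and 22.6% in the TAK-931 libraries. The Sec24d share was thus lower in both, whereas the largest adaptor in the vehicle, Sec24c, went from 39.4% and 38.4% to 45.0% in TAK-931-1 and 29.7% in TAK-931-2. In TAK-931-2 the largest share was that of Sec24a, with 32.7% against 18.5% and 20.1% in the vehicle and 15.2% in TAK-931-1. Sec16b made up 2.75% and 2.19% of Sec16 RPKM in the vehicle, 11.6% in TAK-931-1 and 2.32% in TAK-931-2, so that its share was high in a single library. With 2 libraries per group an exact permutation test of a share cannot reach a p below 0.333, and no such test was run.

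**Figure D5:**
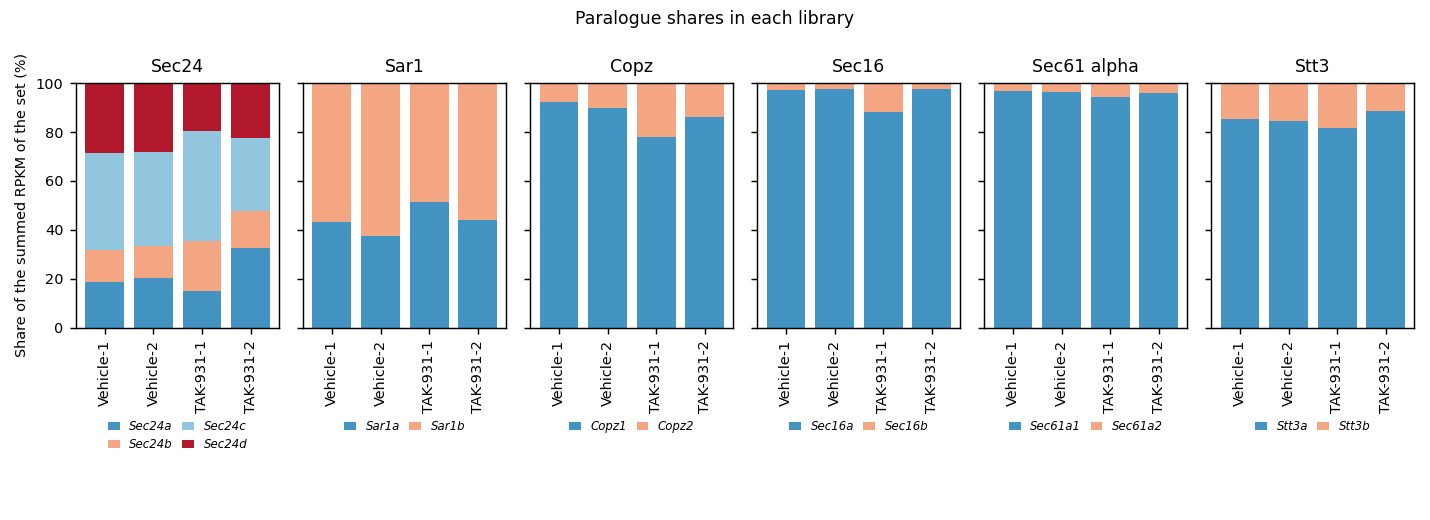
Share of the summed RPKM of 6 paralogue sets in each library, as stacked bars from 0 to 100%. In the Sec24 panel the Sec24a share is 32.7% in TAK-931-2 and 15.2% to 20.1% in the other libraries, and in the Copz panel the Copz2 share is higher in both TAK-931 libraries.

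Subunits of 1 complex did not have equal levels per length. Among the 3 main Sec61 genes (Sec61a1, Sec61b and Sec61g), the highest RPKM was 2.63 and 2.75 times the lowest in the vehicle libraries, 3.69 times in TAK-931-1 and 2.99 times in TAK-931-2. For TRAP, in which Ssr1 was lowest in all 4 libraries, the ratio was 11.5 and 11.8 in the vehicle libraries, against 7.90 (TAK-931-1) and 8.83 (TAK-931-2). In vehicle allografts 18 of the 57 genes were among the 500 genes with the highest RPKM and 27 among the first 1000. The genes lie on 19 chromosomes with at most 7 on any 1.

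To set the genes in their pathway, 104 partner genes in 5 lists were examined, of which 102 were tested. The partners had a median log2 fold change of -0.22, and 53 were lower and 8 higher in both TAK-931 libraries than in both vehicle libraries (background 32.7% and 30.0%). None passed an adjusted p of 0.05 by edgeR (lowest 0.275), and at an unadjusted p under 0.05 Emc9, Alg6, Tmed1 and Kdelr3 were lower (4 of 102, background 6.55%) and Tusc3 higher (1 of 102, background 11.6%), shares below the background. DESeq2 called 1 of them lower at an adjusted p of 0.05, Tmed1 (adjusted p = 0.0147, background 1.08%), and 1 higher, Tusc3 (adjusted p = 0.0202, background 9.09%). The 25 tested genes that build and transfer the lipid-linked oligosaccharide, the donor used by OST, had the lowest median, -0.40. Their median log2 ratio to the vehicle mean was -0.44 for TAK-931-1 and -0.37 for TAK-931-2, but single genes differed between these libraries by a median of 0.36, and the sums were 73.2% and 85.3% of the vehicle mean. In this list 19 genes were lower and 2 higher in both TAK-931 libraries (background 32.7% and 30.0%). Alg1, the first mannosyltransferase of the pathway, was at 74.5, 76.9, 26.0 and 49.6 CPM (-1.003 ± 0.37, adjusted p = 0.276). Krtcap2, an OST-associated subunit, was the highest of the list per length and was at 239 CPM in both vehicle libraries, 143 in TAK-931-1 and 216 in TAK-931-2 (-0.41 ± 0.29). Tusc3, an oxidoreductase subunit of the Stt3b form of OST, was higher in the TAK-931 libraries, with 2.25, 2.28, 30.2 and 4.32 CPM (2.93 ± 1.05, adjusted p = 0.275). Most of the Tusc3 difference lay in TAK-931-1.

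The list for tail-anchor and membrane insertion (17 genes) had a median of -0.31. Its lowest gene, the ER membrane complex subunit Emc9, was at 26.2, 32.5, 12.0 and 17.2 CPM (-1.005 ± 0.33, adjusted p = 0.275), its most abundant, Emc7, was at -0.44 and its highest, Ubl4a, at 0.26. Genes of glycan trimming and glycoprotein folding (13 genes) had a median of -0.21. The lectin chaperone Calr was at 1811, 1865, 1779.9 and 2173 CPM (0.10 ± 0.24), the glucosidase Mogs, which trims the new N-glycan, at 365, 322, 108 and 259 CPM (-0.90 ± 0.48), and Uggt2 at 1.23. Cargo receptors, tethers and fusion factors (36 tested genes) had a median of -0.07. Within this list the p24 family gene Tmed1 was at 65.2, 70.4, 16.4 and 29.9 CPM, low in both TAK-931 libraries (-1.55 ± 0.36, unadjusted p = 0.0109, edgeR adjusted p = 0.275), the COPI GTPase Arf1 was at -0.05 and Tmed3 at 0.46. Of 11 regulators of the secretory program, Xbp1 was at 1059.5, 1059, 377 and 972 CPM (-0.65 ± 0.51, adjusted p = 0.470), Atf6b at 338, 337, 143 and 247 CPM (-0.79 ± 0.34) and Creb3l1 at 5.28, 3.96, 25.3 and 7.23 CPM (1.82 ± 0.74). The median of these regulators relative to the vehicle mean was -1.19 for TAK-931-1 but 0.23 for TAK-931-2, a wider gap between the libraries than for any of the other 4 lists. Cdc7, which encodes the kinase that TAK-931 inhibits, was at 23.0, 21.5, 21.3 and 21.2 CPM (-0.06 ± 0.26).

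Because TAK-931-1 stood apart, each comparison was repeated with 1 TAK-931 library against both vehicle libraries, in which the lone library is assumed to vary like the vehicle pair. Without TAK-931-1, edgeR called 12 of the 54 genes at an adjusted p of 0.05. Of these, 9 were lower (16.1% of all genes tested in this comparison were): Srp14, Srp19, Srpr, Ssr2, Ssr3, Sec11a, Spcs3, Stt3b and Sec22a. The other 3 were higher (12.6%): Sec16a, Sec24a and Copz2. Without TAK-931-2, 43 were called, 40 lower (29.8%) and 3 higher (28.2%), the latter being Sec16b, Sec24b and Copz2. The median log2 fold change was -0.07 without TAK-931-1 and -0.60 without TAK-931-2. The 2 fits share both vehicle libraries and are not independent. Without TAK-931-1 and without TAK-931-2, respectively, they gave log2 fold changes of -0.79 and -1.08 for Sec22a and 0.82 and 1.43 for Copz2. Sec24a went in opposite directions, at 0.92 without TAK-931-1 and -0.59 without TAK-931-2.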

How the data were processed

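Per the labels, STAR 2.6.1c, featureCounts and build mm10 were used; the annotation and strand setting were not given in the sources used here. The authors deposited raw counts per gene from alignments named as uniquely placed reads, with a second deposited column of another kind, summed exon length. Between 17.9% and 23.9% of counts of 1 to 20 were odd, so both mates appear to be counted, and printed intervals and floors cover counting error only and are too narrow.

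All 57 symbols matched RefSeq (GRCm38.p6). Genes were filtered with filterByExpr (minimum count of 10), scaled by TMM and tested by edgeR 4.0.16 (robust quasi-likelihood, two-sided, Benjamini-Hochberg over 13669 genes, R 4.3.3); the SE is the log2 fold change divided by the root of F. Members and lists were chosen with earlier results of these data known. Named were, per role or list, the genes with the highest RPKM and the highest and lowest fold change, plus the paralogue sets; 37 genes are given by library and 20 by ranges, and a few of the latter were chosen after their values were seen. Wilson intervals used statsmodels 0.14.6. The edgeR fit was also run on simulated counts. Same-numbered libraries did not deviate together (correlation 0.004), and the labels name no batch. Alternatives were other scalings and filters, a prior count of 0.5, DESeq2 1.42.0, limma-voom 3.58.1, no robust estimation, halved counts, a block, each library left out, and an adjusted p of 0.01.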

Additional observations from a re-analysis of the deposited data

How the results depend on the processing

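With 2 libraries per group and a TAK-931 pair that differed widely (biological coefficient of variation of 0.436), edgeR called 0 genes, although fitted log2 fold changes reached 11.1. The number of genes called was 1389 with DESeq2 (10.2%) and 144 with the replicate block (1.05%), against 0 for edgeR, and the members called were 0 under both. Of the partner genes, DESeq2 called Tmed1 (-1.51) and Tusc3 (2.98). With the replicate block, 0 members had an unadjusted p under 0.05, against 2, while 16.2% of all tested genes (2214) did. When each library was left out, all genes called ranged from 0 to 8424. Members called at an adjusted p of 0.05 ranged from 0 to 43, and members at an unadjusted p from 0 to 46. The member median ranged from -0.60 to -0.071. With either vehicle library left out, all of these counts were 0, and their highest values came from leaving out TAK-931-2. The median was lowest without TAK-931-2 and highest without TAK-931-1. Under the other scalings, filters and tools the median ranged from -0.31 to -0.20. Members lower in both TAK-931 libraries numbered 27 with median-of-ratios size factors and 25 with library size, scalings chosen for this count after seeing the data.

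Near-zero values turned sign: Arf1 (0.0015 with median-of-ratios and DESeq2, 0.027 with at least 10 counts per library), Cdc7 (0.0097 with at least 10 counts), Sar1a (0.0068 with median-of-ratios and DESeq2, 0.032 with at least 10 counts) and Copz1 (-0.0026 with no filter). Leaving out a library also turned Calr (-0.069 to 0.24), Copg1 (-0.61 to 0.045), Copz1 (-0.095 to 0.11), Rpn2 (-0.46 to 0.15), Sar1a (-0.15 to 0.037), Sec22c (-0.018 to 0.65), Sec23a (-0.75 to 0.085), Sec24a (-0.59 to 0.92), Sec31a (-0.65 to 0.045), Sec61a2 (-0.28 to 0.092), Srp72 (-0.63 to 0.17), Stt3a (-0.78 to 0.047), Tmed3 (-0.080 to 0.83) and Uggt2 (-0.27 to 1.92). Among the genes given by ranges, the sign also differed between the fits without TAK-931-1 and without TAK-931-2 for Copa (0.16 and -0.21), Copb1 (0.091 and -0.17), Copb2 (0.098 and -0.37), Sec63 (0.072 and -0.48), Ssr1 (0.10 and -0.52) and Ssr4 (0.0018 and -0.52). The causes were not tested.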
